A study of Mus musculus with 22 samples.

Results

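Conditional reprogramming cultures of mouse mammary cancers (CRC in the labels) were set against the primary cancers they were grown from. The comparison held 4 of the 22 RNA sequencing libraries of the series: 2 CRC cultures and 2 primary cancers, which the titles number so that CRC culture 1 belongs to cancer 1 and CRC culture 2 to cancer 2. The libraries were chosen by these titles. All 4 came from nulliparous female C57Bl/6 mice of the genotype Brca1fl 11/WT/MMTV-Cre/Trp53-/+, that is, 1 floxed and 1 wild-type Brca1 allele, 1 mutant Trp53 allele, and Cre recombinase driven by the mouse mammary tumour virus promoter, which is active mainly in mammary epithelium. A pair of EpiC cultures (mammary-optimised medium) of the same cancers, with the same genotype, entered the model as a further group. The titles of both cancers begin with the same number and differ in a letter, so both may come from 1 mouse. The sources used here do not give the age of the mice or the handling of feeder cells, and the extraction protocol speaks of homogenised glands for all libraries. Nothing in the labels says that the libraries of a group came from separate cultures or animals, so p-values speak of how these libraries vary, and that variation may be technical.

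In conditional reprogramming, epithelial cells are usually grown on irradiated fibroblasts with a small-molecule inhibitor, a combination known for letting primary epithelial cells divide for long periods. A mammary tumour is a tissue of epithelial cancer cells mixed with macrophages and other leukocytes, blood vessels, pericytes and fibroblasts, whereas an epithelial culture is grown to hold the epithelial cells. In bulk RNA, fewer cells of a type and less RNA per cell cannot be told apart.

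Expression is given as FPKM, fragments per kilobase of transcript, scaled to the number of fragments in the library, with the value of cancer 1 before that of cancer 2. Differences are on the log2(FPKM + 1) scale, CRC culture minus primary cancer; for a gene of low level this scale gives less than the true change. A gene was called when its Benjamini-Hochberg adjusted p from limma was under 0.05 across the 12266 genes whose mean reached 1 FPKM. A value of 0 in this table can be a failed estimate, since of 3508 genes found at 10 FPKM or above throughout the first table, 6 had a 0 in 1 or more of the 4 libraries compared; hence the wording listed at 0.

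CRC culture 2 stood apart from the other libraries. Its FPKM values summed to 1616000, against 701300 in CRC culture 1 and 607500 to 710500 in the EpiC cultures and cancers, and its difference from CRC culture 1 depended on transcript length. The median difference (culture 2 minus culture 1) was 0 for the 2171 genes with the shortest transcripts and −1.05 for the 2157 with the longest, of 5 classes by length, against −0.06 and −0.39 between the EpiC cultures. The cause was not tested, and results that rest on this library are given for each pair.

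**Figure D1:**
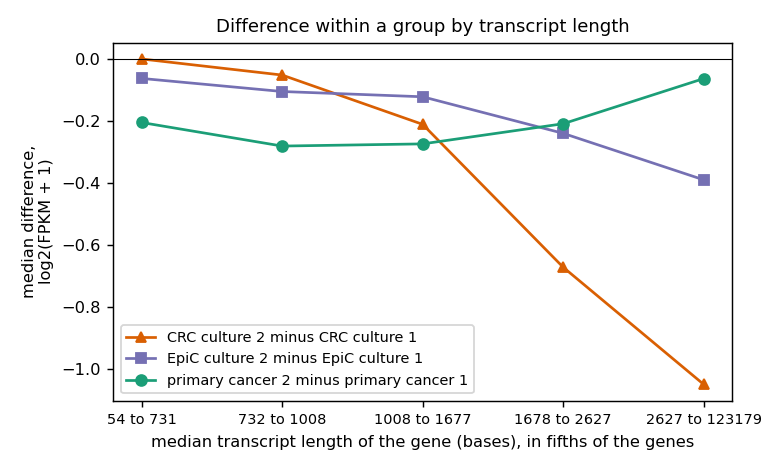
Median difference in log2(FPKM + 1) between the libraries of a group (vertical axis) for genes off chromosome 4 in 5 classes of median transcript length (horizontal axis, bases), with CRC cultures in orange, EpiC cultures in purple and primary cancers in green. The line of the CRC cultures runs from 0 to −1.05, whereas that of the cancers stays between −0.28 and −0.06.

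The other feature was chromosome 4. Across its 1394 genes, the log2 values of the CRC cultures correlated with the mean of the first table at Pearson's r of 0.771 and 0.714, those of the EpiC cultures at 0.752 and 0.769 and those of the cancers at 0.887 and 0.915. On each other chromosome r lay between 0.841 and 0.934 in the CRC cultures. These are descriptions across genes, which share libraries and are not independent. Some chromosome 4 genes near 0 in the cancers carried about the value of another gene of the chromosome in the cultures, of which a pair is given here, chosen after the values were seen. Slc2a7, a sugar transporter gene, had 368 and 343 FPKM in the CRC cultures, 329 and 173 FPKM in the EpiC cultures and was listed at 0 in both cancers. Its values were 0.918 and 1.02 times those of Eno1 in the CRC cultures. Tmem68 had 789 and 7383 FPKM in the CRC cultures, 0.964 and 1.03 times Rps20 there, against 15.5 and 26.8 FPKM in the cancers, 0.0129 and 0.0147 times Rps20. Of the 892 chromosome 4 genes tested, 46 (5.16%) rose, which made up 46 of the 51 rises on all chromosomes. Genes on chromosome 4 were therefore left out of every list count below, and the 34 tested genes with no chromosome were counted as off it. The cause of the pattern was not tested.

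**Figure D2:**
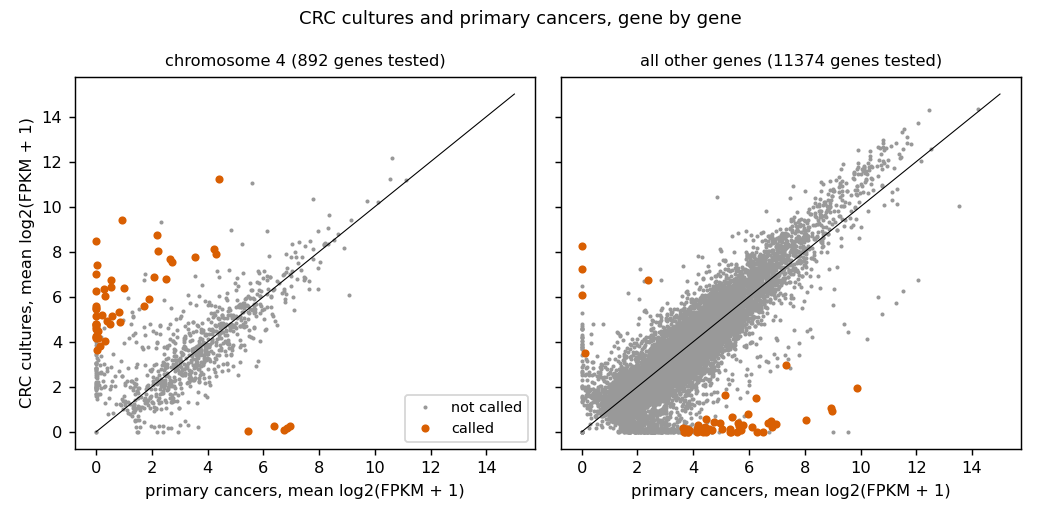
Mean log2(FPKM + 1) of the CRC cultures (vertical axis) against that of the primary cancers (horizontal axis) for each tested gene, on chromosome 4 (left, 892 genes) and elsewhere (right, 11374 genes); called genes are orange and the line marks equality. The 46 called rises on chromosome 4 lie far above the line at low levels in the cancers, and most of the 53 called falls elsewhere lie along the bottom.

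Many transcripts of macrophages and of antigen presentation by class II molecules were near 0 in the CRC cultures and abundant in the primary cancers, as in Lyz2 with 0.763 and 1.07 FPKM in the cultures and 365 and 703 FPKM in the cancers. Single genes of vessels and fibroblasts fell as well, among them Pecam1 and Postn, while the levels of the epithelial genes Krt8, Krt18, Epcam and Cdh1 overlapped between the groups. Of the few genes that rose off chromosome 4, Fgfbp1 and Spink8 code for proteins. In all, 109 genes were called (0.889% of those tested), 51 higher and 58 lower in the CRC cultures. Off chromosome 4, 53 genes (0.466%) fell and 5 (0.044%) rose. That lean to falls was not kept without CRC culture 2. By the values alone, both cultures lay above both cancers in 7.19% of genes off chromosome 4 and below in 7.79%, with a log2 difference of at least 1. Of the 53 that fell, 47 were under 1 FPKM in both CRC cultures, 43 were under 1 FPKM in both EpiC cultures, and 8 were small RNA genes. With the cancer number as a replicate block, 58 genes were called (28 higher, 30 lower) and 25 of the 53 remained called. The calls also rested on EpiC culture 1, and were lost without it. The differences themselves do not use the EpiC libraries, so their direction could not change in that fit.

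Macrophages carry lysozyme, immune receptor adaptors and lysosomal proteases at high levels. Lyz2, the lysozyme of macrophages and neutrophils, had 0.763 and 1.07 FPKM in the CRC cultures, against 365 and 703 FPKM in the primary cancers. It had the largest fall of the genes named here, −8.05 ± 0.56 (SE), limma adjusted p = 0.00672. Its near copy Lyz1, which may share reads with it, had 0.0341 and 0.113 FPKM in the CRC cultures and 20.4 and 29.6 FPKM in the cancers (limma adjusted p = 0.0215). Ctss, the lysosomal protease cathepsin S of antigen-presenting cells, had 0.314 and 0.588 FPKM in the CRC cultures and 229.8 and 294 FPKM in the cancers (log2 difference −7.50 ± 0.53 (SE), limma adjusted p = 0.00672). Tyrobp, an adaptor of myeloid receptors, had 0.1 and 0.22 FPKM in the CRC cultures and 93.3 and 137 FPKM in the cancers (log2 difference −6.62 ± 0.55 (SE), limma adjusted p = 0.00765). In each of these genes both cultures lay far below both cancers.

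The same held for other genes of myeloid cells. Fcer1g, the common chain of Fc receptors, had 0.0797 and 0.264 FPKM in the CRC cultures and 57.2 and 79.1 FPKM in the cancers (log2 difference −5.87 ± 0.55 (SE), limma adjusted p = 0.0088). Csf1r, the receptor that macrophages need to survive, had 0.946 and 0.315 FPKM in the CRC cultures, 5.67 and 4.75 FPKM in the EpiC cultures and 28.5 and 59.8 FPKM in the cancers (log2 difference −4.73 ± 0.61 (SE), limma adjusted p = 0.0275). Its call was lost in the blocked fit (limma adjusted p = 0.0634). Spi1, the transcription factor PU.1 of the myeloid lineage, had 0.032 and 0.0353 FPKM in the CRC cultures and 9.81 and 14.6 FPKM in the cancers (log2 difference −3.65 ± 0.54 (SE), limma adjusted p = 0.0413, and 0.0748 in the blocked fit). Apoe, the lipid carrier made by macrophages and other cells, had 1.31 and 5.29 FPKM in the CRC cultures and 1148 and 767 FPKM in the cancers (log2 difference −7.94 ± 0.63 (SE), limma adjusted p = 0.00672). Without CRC culture 2 the calls of Csf1r and Spi1 were lost, at limma adjusted p of 0.148 and 0.184, while those of Lyz2, Ctss, Tyrobp, Fcer1g and Apoe remained. That fit still held the chromosome 4 genes. Among the members not called, Lilrb4, an inhibitory myeloid receptor, had 0.14 and 0.154 FPKM in the CRC cultures and 7.18 and 32.8 FPKM in the cancers (limma adjusted p = 0.109).

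Of the 15 macrophage markers off chromosome 4, all tested, 7 fell and none rose, against 0.466% falls among all genes off chromosome 4. Both CRC cultures lay below both cancers by at least 1 on the log2 scale in 14 of the 15, where 7.79% of genes off chromosome 4 did so. The exception was Cd14, the lipopolysaccharide co-receptor, which epithelial cells also express: it had 88 and 224 FPKM in the CRC cultures and 370.0 and 108 FPKM in the cancers, and the groups overlapped. The median difference of the list was −3.69, against −0.07 over genes off chromosome 4, and it was −3.90 in the first pair and −3.80 in the second. The list summed to 102 and 234 FPKM in the CRC cultures, mostly Cd14, and to 1299 and 1584 FPKM in the cancers. Many such genes passed the filter on low values through the cancers alone, so counts over a list are a description. The complement genes C1qa, C1qb and C1qc fell as well. They lie on chromosome 4, where a value in the cultures may be that of another gene. Of them, C1qa had 0.206 and 0.227 FPKM in the CRC cultures and 124 and 119 FPKM in the cancers (log2 difference −6.66 ± 0.52 (SE), limma adjusted p = 0.00672).

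**Figure D3:**
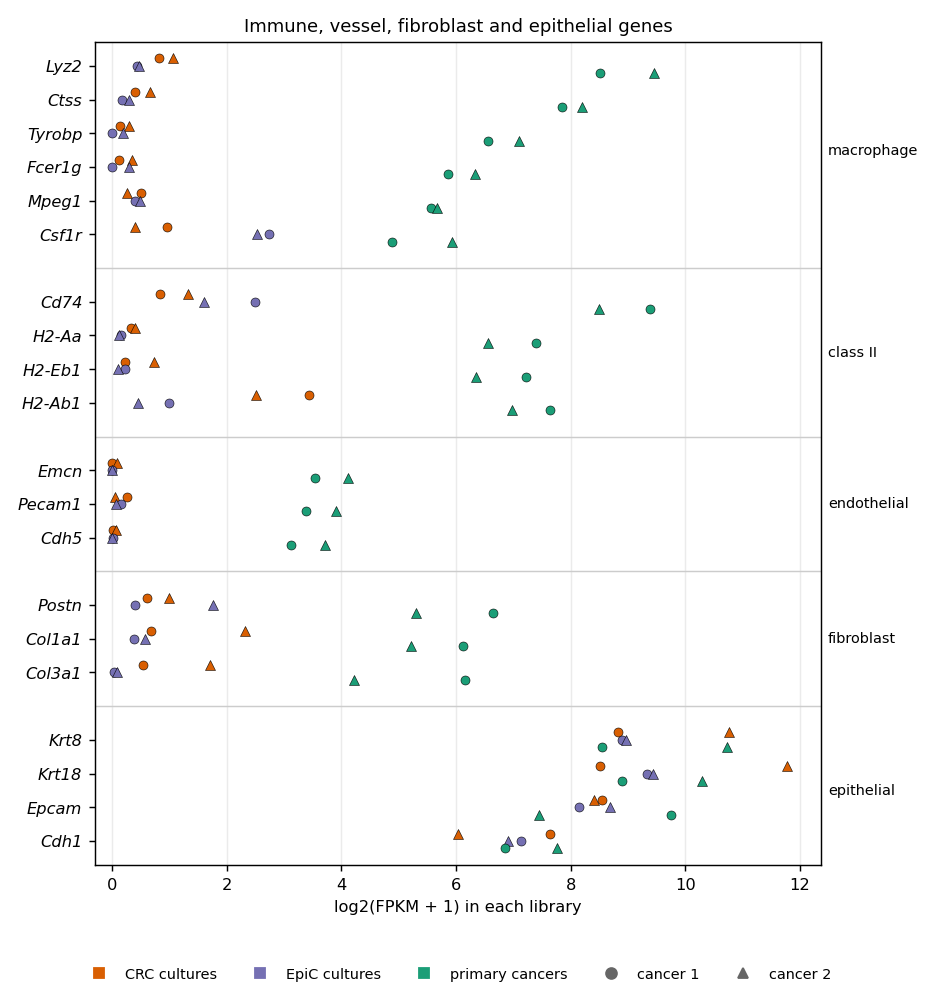
Log2(FPKM + 1) of each library (horizontal axis) for genes of macrophages, class II presentation, endothelium, fibroblasts and epithelium; CRC cultures are orange, EpiC cultures purple and primary cancers green, with circles for cancer 1 and triangles for cancer 2. In the upper 4 blocks every CRC point lies to the left of both cancer points of its gene, with 9.76 and 4.71 FPKM for H2-Ab1 in the CRC cultures and 199 and 125 FPKM in the cancers, whereas the epithelial genes of the groups overlap.

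Class II molecules show peptides to helper T cells, and their invariant chain Cd74 guides them to the compartment where they are loaded. Cd74 had 0.78 and 1.5 FPKM in the CRC cultures, against 671 and 359 FPKM in the primary cancers (log2 difference −7.86 ± 0.60 (SE), limma adjusted p = 0.00672). The class II alpha chain gene H2-Aa had 0.251 and 0.323 FPKM in the CRC cultures and 167 and 93.7 FPKM in the cancers (log2 difference −6.61 ± 0.57 (SE), limma adjusted p = 0.0079). The beta chain gene H2-Eb1 had 0.173 and 0.653 FPKM in the CRC cultures and 148 and 80.2 FPKM in the cancers (log2 difference −6.30 ± 0.59 (SE), limma adjusted p = 0.0088). H2-Ab1, the partner chain of H2-Aa, remained measurable in culture, at 9.76 and 4.71 FPKM in the CRC cultures, 0.995 and 0.362 FPKM in the EpiC cultures and 199 and 125 FPKM in the cancers (log2 difference −4.34 ± 0.60 (SE), limma adjusted p = 0.033). The H2-Ab1 call was lost without CRC culture 2, at a limma adjusted p of 0.154. These were the 4 called falls among the 17 antigen presentation genes tested, against 0.466% of genes off chromosome 4. In 5 of the 17 both cultures lay below both cancers by at least 1, against 7.79%. The median was −0.58, at −0.67 in the first pair and −0.90 in the second, and 0.21 without CRC culture 2.

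Promoters of 2 of these 4 genes, which moved together, were found in the RefSeq table (GRCm38.p6), and both are printed because class II promoters are known for a shared X box and Y box. They run 5′ to 3′, each with 250 bases before and 50 after the start of the gene. Capitals mark the Y box letters CCAAT or their reverse complement ATTGG, and GCAAC, a core of the X box, searched on both strands with no overlap between them. The H2-Aa promoter is chr17:34287774-34288073 on the minus strand and that of H2-Eb1 is chr17:34305617-34305916 on the plus strand.
H2-Aa: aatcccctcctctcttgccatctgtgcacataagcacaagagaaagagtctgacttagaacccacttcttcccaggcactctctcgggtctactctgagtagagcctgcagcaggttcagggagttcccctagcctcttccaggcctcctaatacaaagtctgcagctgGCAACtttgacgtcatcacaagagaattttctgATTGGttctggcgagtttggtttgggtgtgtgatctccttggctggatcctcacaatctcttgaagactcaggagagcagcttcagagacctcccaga
H2-Eb1: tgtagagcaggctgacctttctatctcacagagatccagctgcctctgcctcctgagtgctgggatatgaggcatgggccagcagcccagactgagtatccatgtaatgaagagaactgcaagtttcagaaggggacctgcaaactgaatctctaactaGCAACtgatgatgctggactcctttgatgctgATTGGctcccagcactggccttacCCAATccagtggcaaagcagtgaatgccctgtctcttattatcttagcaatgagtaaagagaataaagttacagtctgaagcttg
GCAAC stands 28 bases before ATTGG in H2-Aa and 27 bases before it in H2-Eb1. Of the 32851 promoters in the table, 37.4% hold CCAAT on either strand, 35.2% hold GCAAC on either strand and 13.7% hold both, so a match is only a description.

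Genes of class I presentation, which nearly all cells carry out, were not called. H2-K1, a class I heavy chain, had 643 and 308 FPKM in the CRC cultures and 1025 and 206 FPKM in the cancers, with culture 1 below its cancer and culture 2 above its own. B2m, the light chain of class I, had 2915 and 1079 FPKM in the CRC cultures and 2813 and 2259 FPKM in the cancers. The peptide transporter gene Tap1 had 35.1 and 9.1 FPKM in the CRC cultures and 37.4 and 13.6 FPKM in the cancers. In each of these the library of cancer 1 was the higher one in both groups. The uncalled members with the largest differences were H2-DMa and H2-DMb1, whose products load class II molecules; H2-DMa had 5.87 and 2.17 FPKM in the CRC cultures and 18.4 and 15.5 FPKM in the cancers (limma adjusted p = 0.404). Reads of class I genes can be split among close copies, so their levels are uncertain.

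Endothelial cells line the vessels and are marked by junction proteins such as Pecam1 and Cdh5. Emcn, the endothelial sialomucin, had 0 and 0.0654 FPKM in the CRC cultures and 10.7 and 16.3 FPKM in the cancers (log2 difference −3.78 ± 0.54 (SE), limma adjusted p = 0.038). Pecam1 had 0.202 and 0.0393 FPKM in the CRC cultures and 9.47 and 14.1 FPKM in the cancers (log2 difference −3.49 ± 0.54 (SE), limma adjusted p = 0.0461). Both calls were lost in the blocked fit, with limma adjusted p of 0.0716 for Emcn and 0.0879 for Pecam1, and without CRC culture 2, at 0.169 and 0.218. Cdh5, vascular cadherin, had 0.00956 and 0.0421 FPKM in the CRC cultures and 7.71 and 12.1 FPKM in the cancers, and narrowly missed the threshold (limma adjusted p = 0.0529). Of the 9 endothelial markers tested off chromosome 4, 2 fell, against 0.466% of all genes off chromosome 4. In 8 both cultures lay below both cancers by at least 1, against 7.79%, and the median was −2.91. Egfl7, a secreted protein of endothelium, was the exception, at 6.08 and 22 FPKM in the CRC cultures and 9.08 and 8.53 FPKM in the cancers. The other 7 markers off chromosome 4 missed the filter on low values, among them Kdr, the main receptor for vascular endothelial growth factor, with 0.103 and 0.038 FPKM in the CRC cultures and 2.23 and 3.42 FPKM in the cancers.

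Fibroblasts build the collagen matrix of a tumour. Postn, the matrix protein periostin, fell, with 0.532 and 0.982 FPKM in the CRC cultures and 99.1 and 38.4 FPKM in the cancers (log2 difference −5.17 ± 0.74 (SE), limma adjusted p = 0.0376, 0.0748 in the blocked fit and 0.204 without CRC culture 2). The collagen chain gene Col1a1 had 0.595 and 3.99 FPKM in the CRC cultures and 68.4 and 36.2 FPKM in the cancers without being called (limma adjusted p = 0.0717). Col1a2 had 1.19 and 4.19 FPKM in the CRC cultures and 98.1 and 37 FPKM in the cancers (limma adjusted p = 0.117). Of 20 fibroblast and collagen genes tested, 1 fell and none rose, against 0.466% and 0.044% of genes off chromosome 4. In 16 both cultures lay below both cancers by at least 1, against 7.79%. The median was −2.45, at −2.67 in the first pair and −2.20 in the second. Dcn, the proteoglycan decorin, had 3.03 and 7.29 FPKM in the CRC cultures, 0 and 1.79 FPKM in the EpiC cultures and 12.6 and 2.56 FPKM in the cancers, and Pdgfra, a receptor of fibroblasts, had 0.899 and 0.144 FPKM in the CRC cultures and 6.25 and 0.775 FPKM in the cancers. Both markers overlapped between the groups. Fn1, fibronectin, which cultured epithelial cells also make, had 145 and 48.9 FPKM in the CRC cultures and 191 and 286 FPKM in the cancers. Both cultures lay below both cancers for Fn1, Col1a1 and Col1a2, yet Fn1 stayed well above 0 in culture. The handling of feeder cells is not given, and whether RNA of these genes in culture came from such cells was not tested.

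Pericyte and smooth muscle markers were lower without a call: Rgs5, a pericyte gene, was listed at 0 in both CRC cultures and had 4.31 and 5.21 FPKM in the cancers (limma adjusted p = 0.117). Both cultures lay below both cancers by at least 1 in 5 of the 7 tested, against 7.79% of genes off chromosome 4. The median was −2.31, and Myh11 had 0.0339 and 0.00622 FPKM in the CRC cultures and 0.204 and 0.351 FPKM in the cancers. Neutrophil genes had no call among 6 tested and a median of −2.74. S100a9, a calcium-binding protein of neutrophils, had 19.8 and 15.6 FPKM in the CRC cultures and 115 and 814 FPKM in the cancers (limma adjusted p = 0.157). Its partner S100a8, which epithelium also makes, had 129 and 113 FPKM in the CRC cultures, 5.24 and 15.4 FPKM in the EpiC cultures and 133 and 630.0 FPKM in the cancers. Of the T and NK cell markers none passed the filter, and Cd3e and Cd3g had at most 1.595 FPKM in any library. Among defining markers of B cells, mast cells, fat cells and muscle, Cd79a, Cpa3, Mcpt4, Adipoq, Plin1 and Ckm had at most 0.248 FPKM in the 4 libraries, whereas Acta1, a muscle actin, had 0.085 and 2.18 FPKM in the CRC cultures and 0.0757 and 8.22 FPKM in the cancers. The rest of these lists held more, chiefly in single genes that other cells may also express, chosen after their values were seen. Skeletal muscle markers off chromosome 4 summed to 18.8 and 169 FPKM in the CRC cultures and 7.02 and 61.7 FPKM in the cancers, most of it in CRC culture 2 from Tnni2, a troponin, with 5.47 and 145 FPKM in the CRC cultures and 1.57 and 12.7 FPKM in the cancers. Fat cell markers summed to 9.74 and 13.8 FPKM in the CRC cultures and 21.6 and 40.6 FPKM in the cancers, mostly Fabp4, a fatty acid carrier. B cell markers off chromosome 4 summed to 16.6 and 25.6 FPKM in the CRC cultures and 6.61 and 15.9 FPKM in the cancers. Most of this was Blnk, an adaptor of the B cell receptor, with 16.5 and 25 FPKM in the CRC cultures and 5.59 and 14.3 FPKM in the cancers, so both cultures lay above both cancers without a call (limma adjusted p = 0.829). Mast cell markers summed to 0.128 and 0.346 FPKM in the CRC cultures and 80.3 and 1.35 FPKM in the cancers, and in cancer 1 all of it was Kit, which luminal progenitors also carry. Il1b, the inflammatory cytokine interleukin 1 beta, had 0.0322 and 0 FPKM in the CRC cultures and 11.7 and 52 FPKM in the cancers (limma adjusted p = 0.0579).

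The other genes that fell include some known from leukocytes, of which a few are given here, chosen after their values were seen. The Fc receptor gene Fcgr2b had 0 and 0.0995 FPKM in the CRC cultures and 31.9 and 82.8 FPKM in the cancers (log2 difference −5.65 ± 0.64 (SE), limma adjusted p = 0.0188). Srgn, the proteoglycan of blood cell granules, had 0.394 and 0.272 FPKM in the CRC cultures and 47.8 and 213 FPKM in the cancers (log2 difference −6.26 ± 0.78 (SE), limma adjusted p = 0.0239). Cybb, a subunit of the phagocyte oxidase, had 0.0159 and 0 FPKM in the CRC cultures and 11.3 and 12.8 FPKM in the cancers (log2 difference −3.69 ± 0.52 (SE), limma adjusted p = 0.0364). In these genes too both cultures were far below both cancers.

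Cxcr4, a chemokine receptor that is found on leukocytes, endothelium and some cancer cells, had 0.157 and 0.0248 FPKM in the CRC cultures and 25.2 and 12 FPKM in the cancers (limma adjusted p = 0.0387). A few called genes stayed measurable in culture. Sirpa, the receptor for the signal that spares cells from phagocytosis, had 2.26 and 1.99 FPKM in the CRC cultures and 37.7 and 30.9 FPKM in the cancers (log2 difference −3.49 ± 0.53 (SE), limma adjusted p = 0.0436). Anpep, an aminopeptidase of the cell surface, had 2.46 and 1.29 FPKM in the CRC cultures and 115 and 48.9 FPKM in the cancers (limma adjusted p = 0.0353). Gpihbp1, which holds lipoprotein lipase on capillaries, had 0 and 0.202 FPKM in the CRC cultures and 17.8 and 15.5 FPKM in the cancers (limma adjusted p = 0.0303), and the matrix gene Sparcl1 had 0.211 and 0.26 FPKM in the CRC cultures and 79.7 and 37.4 FPKM in the cancers (limma adjusted p = 0.0158). Among the 8 small RNA genes, Mir1901 was listed at 0 in both CRC and both EpiC cultures and had 106 and 76.8 FPKM in the cancers. AF357399 was listed at 0 in both CRC cultures only, with 39.2 and 40.7 FPKM in the EpiC cultures and 38.5 and 55.7 FPKM in the cancers. In libraries of polyadenylated RNA, values of small RNA genes may not measure the small RNAs themselves. In the blocked fit the calls of Cybb (limma adjusted p = 0.0716), Cxcr4 (0.0709), Sirpa (0.0807), Anpep (0.0709) and Gpihbp1 (0.0634) were lost, and without CRC culture 2 so were all of these and those of Fcgr2b (0.124), Srgn (0.173) and Sparcl1 (0.0991).

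The identity of the cultures as epithelial cells was checked on 4 genes, of which none was called. Krt8, a keratin of luminal cells, had 451 and 1730 FPKM in the CRC cultures and 375 and 1694 FPKM in the cancers. Krt18, its partner, had 363 and 3513 FPKM in the CRC cultures and 478 and 1247 FPKM in the cancers. Epcam, an epithelial adhesion protein, had 376 and 337 FPKM in the CRC cultures and 864 and 174 FPKM in the cancers. Cdh1, E-cadherin, had 198 and 64.3 FPKM in the CRC cultures and 114 and 215 FPKM in the cancers. The groups overlapped for all 4 genes, and none of 22 luminal genes tested was called, with a median of 0.15 (and −0.29 without CRC culture 2). The uncalled luminal genes with the largest differences were Kit, a receptor of luminal progenitors, at 0.0874 and 0.0722 FPKM in the CRC cultures and 80.3 and 1.03 FPKM in the cancers, and Aldh1a3, an enzyme of retinoic acid synthesis, at 0.181 and 0.2 FPKM in the CRC cultures and 4.05 and 9.16 FPKM in the cancers (limma adjusted p = 0.281).

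Milk genes set the cancers apart from each other. Csn1s1, a casein, had 7.22 and 5.1 FPKM in the CRC cultures, against 9143 and 2.49 FPKM in the cancers (log2 difference −4.66 ± 3.11 (SE), limma adjusted p = 0.816). Csn3, another casein, had 21.9 and 3.06 FPKM in the CRC cultures and 5944 and 1.76 FPKM in the cancers. Of the 4 libraries, only cancer 1 was high for these caseins. Other genes on the milk list, which are also made outside milk, were abundant in culture. Lcn2, the iron-carrier binding protein lipocalin 2, had 1816 and 2355 FPKM in the CRC cultures and 7890 and 224 FPKM in the cancers, and Spp1, osteopontin, had 4128 and 379 FPKM in the CRC cultures and 5851 and 840.0 FPKM in the cancers, both chosen after their values were seen. The list summed to 6125 and 3053 FPKM in the CRC cultures and to 32270 and 1174 FPKM in the cancers. None of the 11 milk genes tested was called, and their median was −3.92 in the first pair and 0.01 in the second.

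Basal and squamous genes were not called, and those given here had their highest value in CRC culture 2. Krt5, the keratin of basal cells, had 24 and 917 FPKM in the CRC cultures, 0.198 and 0.193 FPKM in the EpiC cultures and 7.3 and 1.2 FPKM in the cancers (log2 difference 5.15 ± 1.58 (SE), limma adjusted p = 0.383). Krt14, the partner of Krt5, had 291 and 2728 FPKM in the CRC cultures, 14.1 and 142 FPKM in the EpiC cultures and 48.6 and 195 FPKM in the cancers (limma adjusted p = 0.739). Trp63, the transcription factor p63 of basal cells, had 2.98 and 3.94 FPKM in the CRC cultures, 0.0112 and 1.53 FPKM in the EpiC cultures and 3.16 and 0.294 FPKM in the cancers, so that culture 1 lay below its cancer and culture 2 above its own. Krtdap, a secreted protein of differentiating keratinocytes, had 3.31 and 178 FPKM in the CRC cultures and 0.769 and 0 FPKM in the cancers (limma adjusted p = 0.529). Sbsn, suprabasin of the upper epidermis, had 95.9 and 285 FPKM in the CRC cultures and 8.1 and 15.9 FPKM in the cancers (limma adjusted p = 0.172). Dmkn, another secreted protein of the epidermis, had 44.4 and 230.1 FPKM in the CRC cultures, 0.215 and 0.982 FPKM in the EpiC cultures and 5.93 and 2.24 FPKM in the cancers (log2 difference 4.43 ± 0.89 (SE), limma adjusted p = 0.112).

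Of 15 squamous differentiation genes tested none was called. In 8 of them both cultures were above both cancers by at least 1, where 7.19% of genes off chromosome 4 were. The median of the list was 2.15, at 0.80 in the first pair and 3.65 in the second, and 0.48 without CRC culture 2. Of 16 basal genes none was called, 3 had both cultures above both cancers by at least 1, against the same 7.19%, and the median was 0.52. Transcript length moved with the values of CRC culture 2, and its part in this result was not tested.

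Of the 5 genes that rose off chromosome 4, 4 lie on other chromosomes and 1 has no chromosome in the annotations used. Fgfbp1, a secreted carrier of fibroblast growth factors, had 70.5 and 163 FPKM in the CRC cultures, 118 and 182 FPKM in the EpiC cultures and 6.97 and 2.33 FPKM in the cancers (log2 difference 4.39 ± 0.67 (SE), limma adjusted p = 0.0436). Spink8, a gene of the Kazal type protease inhibitor family, had 9.9 and 10.9 FPKM in the CRC cultures and was listed at 0 in both EpiC cultures, with 0.204 and 0 FPKM in the cancers (log2 difference 3.38 ± 0.53 (SE), limma adjusted p = 0.0461). Both were lost in the blocked fit, at limma adjusted p of 0.108 for Fgfbp1 and 0.0879 for Spink8, and without CRC culture 2, at 0.26 and 0.264. Snord73a, a small nucleolar RNA gene, had 204 and 449 FPKM in the CRC cultures and was listed at 0 in both cancers. Snord23, of the same class, had 44.8 and 98.7 FPKM in the CRC cultures and was listed at 0 in both cancers. The last, BC049635, had 154 and 148 FPKM in the CRC cultures, was listed at 0 in both cancers and has no chromosome in the annotations used. These 3 are listed at exactly 0 in the cancers, so no fold is given for them. The libraries are of polyadenylated RNA, so values of Snord73a and Snord23 may not measure the small RNAs themselves.

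The genes of amino acid supply given here stood higher in both cultures than in both cancers without being called. Phgdh, the first enzyme of serine synthesis, had 392 and 426 FPKM in the CRC cultures, 378 and 291 FPKM in the EpiC cultures and 24.8 and 66.6 FPKM in the cancers (log2 difference 3.29 ± 0.62 (SE), limma adjusted p = 0.0901). Asns, asparagine synthetase, had 81.9 and 90.8 FPKM in the CRC cultures and 13.4 and 24.3 FPKM in the cancers (log2 difference 2.19 ± 0.50 (SE), limma adjusted p = 0.158). Psat1, the second enzyme of serine synthesis, had 202 and 91.2 FPKM in the CRC cultures and 65.1 and 40.0 FPKM in the cancers (limma adjusted p = 0.723). Psph, the last enzyme, had 35.5 and 37.8 FPKM in the CRC cultures and 14.3 and 10.3 FPKM in the cancers (limma adjusted p = 0.448). In all 4 genes both cultures lay above both cancers. Of 23 genes tested that respond to unfolded proteins or lack of amino acids, 7 had both cultures above both cancers by at least 1, against 7.19% of genes off chromosome 4, and the median was 0.51, at 0.52 and 0.50 in the first and second pair. Hspa5, the main chaperone of the endoplasmic reticulum, had 909 and 378 FPKM in the CRC cultures and 921 and 763 FPKM in the cancers, with culture 2 lowest of the 4.

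Genes of sterol synthesis also had high values in both cultures without a call. Fdps, which makes farnesyl diphosphate, had 236 and 783 FPKM in the CRC cultures, 289 and 277 FPKM in the EpiC cultures and 63.3 and 70.1 FPKM in the cancers (log2 difference 2.67 ± 0.67 (SE), limma adjusted p = 0.21). Acat2, which makes acetoacetyl-CoA, had 39.9 and 104 FPKM in the CRC cultures and 17.8 and 6.94 FPKM in the cancers (limma adjusted p = 0.303). Idi1, the isomerase of the pathway, had 96.5 and 61 FPKM in the CRC cultures and 18.3 and 20.6 FPKM in the cancers (limma adjusted p = 0.226). None of the 21 cholesterol synthesis genes tested was called, 9 had both cultures above both cancers by at least 1, against 7.19% of genes off chromosome 4, and none had both below, against 7.79%. The median was 0.91, at 1.17 in the first pair and 0.54 in the second. Hmgcs1, the synthase early in the pathway, was listed at 0 in all 6 libraries.

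Division genes given here had higher values in both cultures than in both cancers, without a call. Birc5, survivin of the mitotic spindle, had 154 and 317 FPKM in the CRC cultures, 217 and 178 FPKM in the EpiC cultures and 56.6 and 63.9 FPKM in the cancers (log2 difference 1.86 ± 0.55 (SE), limma adjusted p = 0.351). Ccnb1, cyclin B1, had 92.2 and 47.4 FPKM in the CRC cultures and 13.4 and 26.1 FPKM in the cancers (limma adjusted p = 0.435). Tk1, thymidine kinase of S phase, had 131 and 149.8 FPKM in the CRC cultures and 50.9 and 39.4 FPKM in the cancers (limma adjusted p = 0.351). Of 21 mitosis genes none was called and 10 had both cultures above both cancers by at least 1, against 7.19% of genes off chromosome 4. Their median was 2.06 in the first pair and 0.07 in the second. Of 24 DNA replication genes none was called and 9 had both cultures above by at least 1, against the same 7.19%. Their medians were 1.37 and 0.43 in the first and second pair.

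**Figure D4:**
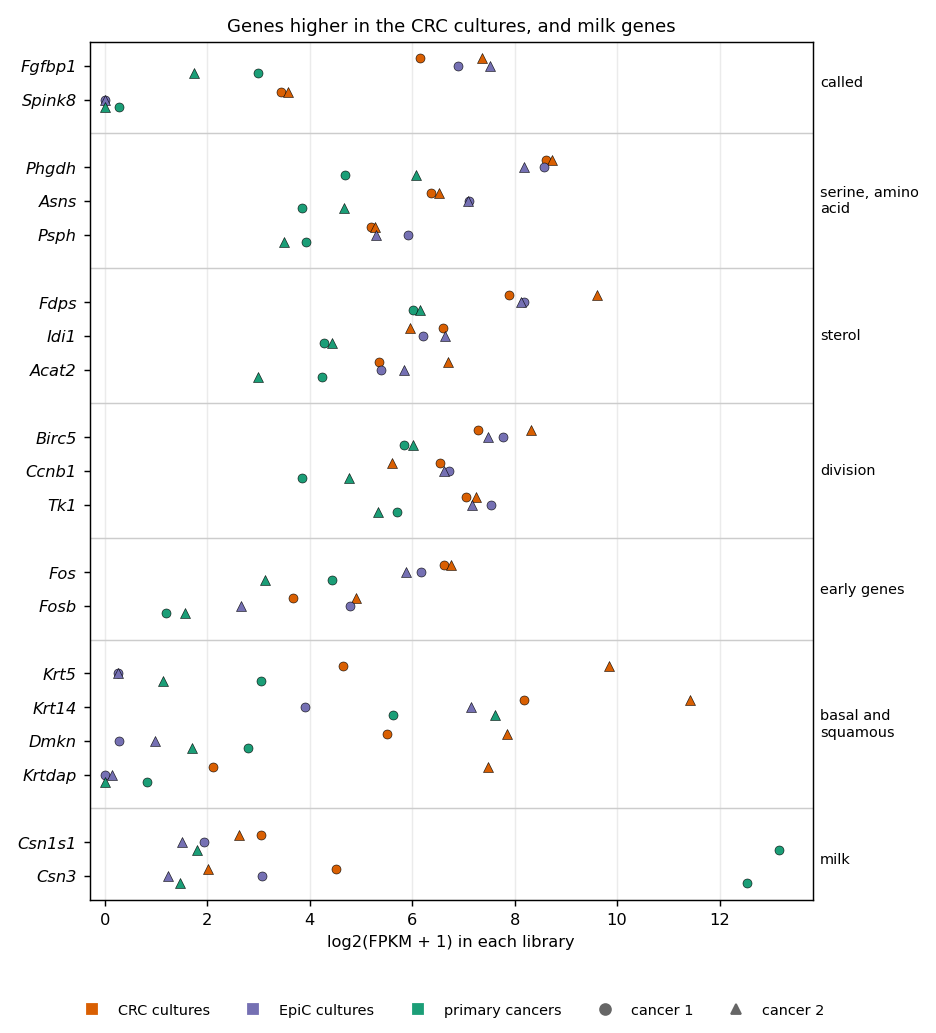
Log2(FPKM + 1) of each library (horizontal axis) for 2 genes that rose, uncalled genes of amino acid supply, sterol synthesis, division, the early response and basal and squamous epithelium, and milk genes; CRC cultures are orange, EpiC cultures purple and primary cancers green, with circles for cancer 1 and triangles for cancer 2. Phgdh, Asns, Fdps and Fos have both CRC cultures above both cancers, Krt5 reaches 917 FPKM in CRC culture 2 alone, and the caseins are high in cancer 1 alone.

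Early response genes are switched on within minutes of growth factor signals or handling. Fos had 96.9 and 107 FPKM in the CRC cultures, 71.3 and 57.8 FPKM in the EpiC cultures and 20.8 and 7.77 FPKM in the cancers (log2 difference 2.90 ± 0.58 (SE), limma adjusted p = 0.112), and Fosb had 11.8 and 28.9 FPKM in the CRC cultures and 1.29 and 1.95 FPKM in the cancers (limma adjusted p = 0.325). Of 18 such genes tested none was called, 6 had both cultures above by at least 1, against 7.19% of genes off chromosome 4, and 1 had both below, against 7.79%. Among matrix proteases, Mmp7 (matrilysin, an epithelial protease) had 22.8 and 16.6 FPKM in the CRC cultures, 0 and 2.54 FPKM in the EpiC cultures and 0.574 and 0 FPKM in the cancers (limma adjusted p = 0.0901). Mmp12, the elastase of macrophages, had 0.0213 and 0.0937 FPKM in the CRC cultures and 4.22 and 45.9 FPKM in the cancers (limma adjusted p = 0.226). On the mesenchymal transition list, S100a4 had 278 and 490.3 FPKM in the CRC cultures and 83.2 and 58.9 FPKM in the cancers (limma adjusted p = 0.15), whereas Tgfbi, a TGF-beta induced matrix protein, had 0.862 and 9.13 FPKM in the CRC cultures and 29 and 49.5 FPKM in the cancers (limma adjusted p = 0.299). The 15 genes of that list had 4 with both cultures above and 5 with both below by at least 1, against 7.19% and 7.79% of genes off chromosome 4.

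Interferon response genes had medians of opposite sign in the pairs, 1.89 in the first and −2.22 in the second over 26 genes. Oasl2, an antiviral protein, had 42.6 and 3.83 FPKM in the CRC cultures and 15.9 and 102 FPKM in the cancers, so culture 1 was above its cancer and culture 2 below its own. The integrin and laminin list had medians of 0.94 and −1.68. Lama3, a laminin chain of the basement membrane, had 17.9 and 1.71 FPKM in the CRC cultures and 3.99 and 90.5 FPKM in the cancers. Ribosomal protein genes had a median of 0.31 in the first pair and 2.90 in the second, and oxidative phosphorylation genes 0.30 and 2.07. Rplp1, a ribosomal stalk protein, had 3514 and 30250 FPKM in the CRC cultures and 2629 and 3157 FPKM in the cancers. The median difference of CRC culture 2 from its cancer was 0.19 in the class of shortest transcripts and −0.89 in that of the longest. Transcript lengths of these lists were not compared, and ribosomal protein genes may share reads with processed copies. The part of either in these medians was not tested.

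**Figure D5:**
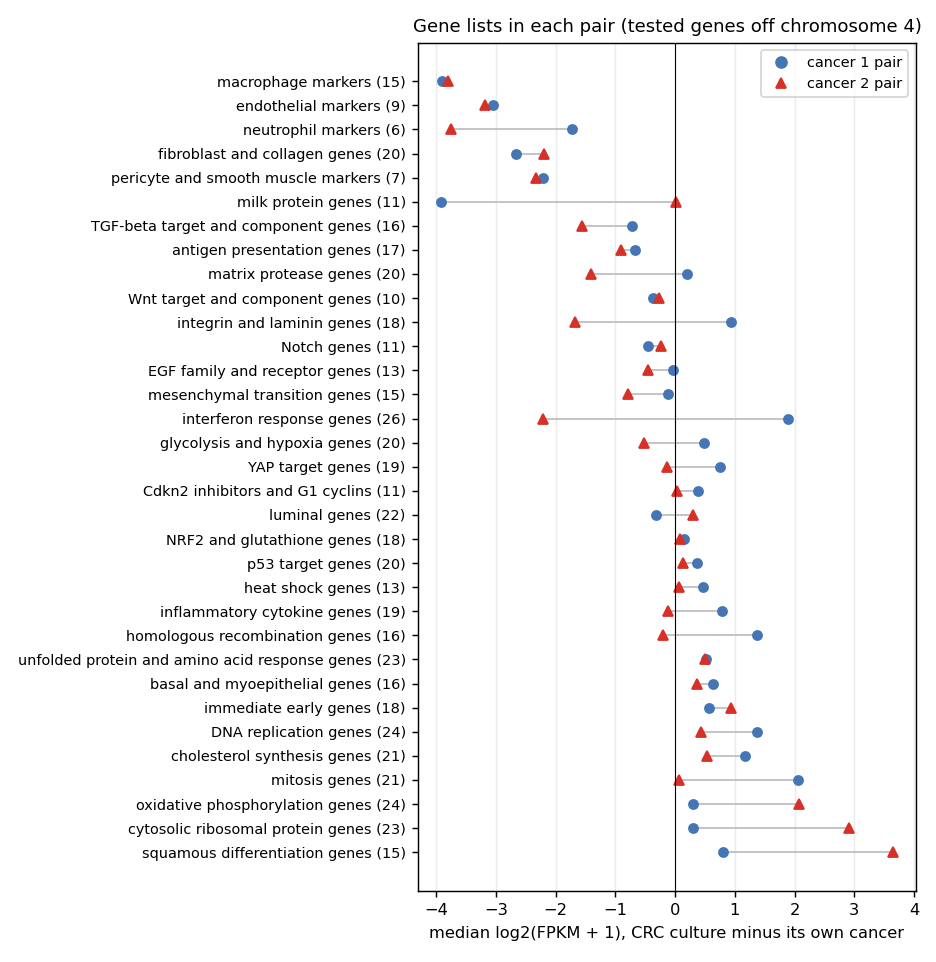
Median difference in log2(FPKM + 1) between a CRC culture and its own cancer (horizontal axis) for each gene list with at least 5 tested genes off chromosome 4 (vertical axis, number of genes in brackets), with blue circles for the cancer 1 pair and red triangles for the cancer 2 pair. Macrophage, endothelial, fibroblast and pericyte lists lie below −2 in both pairs, whereas the interferon and ribosomal lists differ widely between the pairs.

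The other lists held no called member off chromosome 4. Their medians were 0.34 for 20 p53 targets, 0.00 for 19 YAP targets, −0.70 for 16 TGF-beta genes, −0.46 for 11 Notch genes, −0.41 for 13 genes of the EGF family, 0.41 for 19 inflammatory cytokine genes and 0.16 for 18 NRF2 and glutathione genes. Ltbp2 and Pmepa1, a latent TGF-beta binding protein and a TGF-beta target, were the TGF-beta genes farthest below the cancers; Pmepa1 had 18.9 and 37.1 FPKM in the CRC cultures and 94.6 and 75.5 FPKM in the cancers (limma adjusted p = 0.423). Bax, a p53 target that drives cell death, had 38.7 and 237 FPKM in the CRC cultures and 32.3 and 36.2 FPKM in the cancers (limma adjusted p = 0.799). Tgfa, a ligand of the EGF receptor, had 8.53 and 1.71 FPKM in the CRC cultures and 12 and 45 FPKM in the cancers (limma adjusted p = 0.614).

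The genes altered in these mice, and the receptors used to class breast cancers, were not called. Brca1 had 7.51 and 1.56 FPKM in the CRC cultures and 2.05 and 3.9 FPKM in the cancers, and Trp53 had 15 and 21.9 FPKM in the CRC cultures and 18.3 and 16.3 FPKM in the cancers. With a wild-type copy of each gene in the germ line, and no values by exon, these levels do not check the labels. The oestrogen receptor gene Esr1 had 0.923 and 0.0581 FPKM in the CRC cultures and 2.38 and 0.876 FPKM in the cancers, the progesterone receptor gene Pgr at most 0.14 FPKM in any of the 4 libraries, and Erbb2 had 15 and 14.1 FPKM in the CRC cultures and 24.1 and 16 FPKM in the cancers. The groups overlapped for Brca1, Trp53 and Esr1, and both cultures were below both cancers for Erbb2 (log2 difference −0.41 ± 0.56 (SE), limma adjusted p = 0.884).

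Set directly against the EpiC cultures of the same cancers, the CRC cultures had 1 called gene of 12266 (0.00815%), and 200 genes had an unadjusted p under 0.05. The called gene was Mir186, listed at 0 in both CRC cultures and in both cancers, with 200.3 and 312 FPKM in the EpiC cultures (log2 difference −7.97 ± 0.55 (SE), limma adjusted p = 0.0264). No gene was called in the blocked fit, where 238 had an unadjusted p under 0.05. Libraries of polyadenylated RNA do not measure a mature microRNA, whose sequence from RefSeq (GRCm38.p6, chr3:157544285-157544306, plus strand) is given for identity, with the seed, bases 2 to 8, in capitals.
mmu-miR-186-5p: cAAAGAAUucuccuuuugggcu
Spink8 and Dmkn, both near 0 in the EpiC cultures, had log2 differences of 3.51 ± 0.53 (SE) and 6.04 ± 0.89 (SE) from them without a call (limma adjusted p = 0.489 for both). Krt5 had 6.99 ± 1.58 (SE) (limma adjusted p = 1).

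CRC cultures and CRC allografts of the first table share no library with this comparison. There, 3 CRC cultures of C57Bl/6 mammary cells stood against 7 allografts of CRC cells in the mammary glands of NU (NCr)-Foxn1nu hosts, a nude strain that lacks mature T cells. Their genotypes were Tet-op-CYP19A1MMTV-rtTA/p53-/+/MMTV-Cre, which drives aromatase, Brca1fl 11/WT/MMTV-Cre/Trp53-/+ and Brca1fl11/fl11/MMTV-Cre/Trp53-/+, with 1 culture each. Several allografts share a genotype and may come from the same cells, yet the model counted each as an independent library. Its p-values therefore speak only of how these libraries vary. Of 12325 genes tested there, 18.4% rose in the cultures and 21.2% fell, in a model with genotype as a term. Of the 53 genes that fell off chromosome 4 in the CRC cultures of the cancers, 44 could be tested there and 42 fell. Lyz2 had 0.47 to 1.27 FPKM in the 3 cultures, against 1412 to 7658 FPKM (median 1897) in the allografts (log2 difference −10.56 ± 0.53 (SE), limma adjusted p = 4.47e-09). Fgfbp1 had 506 to 757 FPKM in the cultures and 0.0486 to 4.03 FPKM in the allografts (limma adjusted p = 1.87e-05). Krt5 had 4450 to 5457 FPKM in those cultures and 0.0113 to 4.02 FPKM in the allografts (limma adjusted p = 4.35e-09). Phgdh had 73.3 to 114 FPKM in the cultures and 52.2 to 167 FPKM in the allografts, without a call (limma adjusted p = 0.775).

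Off chromosome 4, 14 of 15 macrophage markers, 13 of 14 endothelial markers and 19 of 22 fibroblast and collagen genes fell in the cultures of the first table. Among all genes tested there, 21.2% fell. Of the squamous differentiation genes 18 of 19 rose, of the luminal genes 14 of 19 and of the cholesterol synthesis genes 17 of 23, each against 18.4% of all genes. Of 22 mitosis genes 3 rose and 2 fell there. No test was made across the tables.

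The calls depended on which genes and libraries entered the fit. With chromosome 4 left out of the fit, 22 of 11374 genes (0.193%) fell, among them Lyz2, Apoe, Cd74, Ctss, Tyrobp, H2-Aa and H2-Eb1, and 3 rose. Of the calls named, those of Csf1r, Spi1, H2-Ab1, Emcn, Pecam1, Postn, Cybb, Cxcr4, Sirpa, Anpep, Gpihbp1, Fgfbp1 and Spink8 were lost there, at limma adjusted p between 0.0551 for Csf1r and 0.0828 for Spink8. Without CRC culture 2, 44 genes were called and 11 of the 53 falls remained called. Leaving out CRC culture 2 and chromosome 4 together kept fewer of the 53 calls than leaving out either alone. With the cancer number as a block and chromosome 4 left out, 10 of the 53 remained called. All 53 genes were still lower without CRC culture 2, whereas leaving chromosome 4 out of the fit cannot change a difference.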

How the data were processed

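The authors' 2 deposited tables hold FPKM per gene, made with TopHat and Cufflinks on mm9 after FastQC and Trim Galore, per the submitters' processing notes; no version, strand handling or fragment count is given, so the depth is unknown. Polyadenylated RNA was selected, made into TruSeq libraries and sequenced from both ends on a HiSeq 2000, per the labels' protocols. Of the values above 0 in the table used, 51.55% have more than 6 digits and 97.17% of those end in 5, which is the form of means of pairs of numbers; the authors' step behind it is not given. Rows that share a symbol (162 symbols) were summed. Of 23490 symbols, 23400 had a chromosome in the RefSeq or GENCODE annotations, with synonyms and older symbols included. Transcript lengths came from GENCODE.

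Differences are from limma 3.58.1 in R 4.3.3 (lmFit, eBayes with trend) on log2(FPKM + 1), with genes of mean 1 FPKM or more and Benjamini-Hochberg adjusted p under 0.05, over the 6 libraries of the table as 3 groups (residual degrees of freedom 3). An exact permutation test of 2 against 2 libraries cannot go below p = 0.333. Tables were built with Python 3.11.15 and pandas 2.3.3, and the fits were tested on simulated data. The same fit with genotype as a term served the first table. Its levels were set beside those of the second only in the chromosome 4 correlations and the check of values of 0. Titles pair each culture with its cancer; deviations of the pairs from their group means correlated at −0.0555 for CRC culture and cancer, over 12266 genes. The fit with the cancer number as a block, other pseudocounts, filters and scalings, and fits without each library were the alternatives.

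The lists of genes and the genes named were chosen with earlier results of these data known. Named were Brca1, Trp53, Esr1, Pgr and Erbb2, the 10 called increases and 10 called decreases of largest size with 5 FPKM or more in the higher group, up to 4 called and 2 uncalled members per list, defining cell markers, the called gene against EpiC cultures, and the most abundant genes; not all are printed. Chosen after their values were seen were Fcer1g, Spi1, Lyz1, Cd14, H2-K1, B2m, Tap1, Egfl7, Kdr, Fn1, Fgfbp1, Spink8, Snord23, Psat1, Psph, Hspa5, Idi1, Hmgcs1, Dmkn, Col3a1, Mpeg1 and the further called genes marked so in the text.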

Additional observations from a re-analysis of the deposited data

Results flagged for a closer look

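Mir186 was the 1 gene whose level differed by test between CRC and EpiC cultures of the same cancers, with a log2 difference of −7.97. It was listed at 0 in both CRC cultures and both cancers and had 200.3 and 312 FPKM in the EpiC cultures. The adjusted p from limma was 0.0264, and the call was lost with the cancer number as a block. In the table a value of 0 can be a failed estimate, and what set these values was not tested.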

How the results depend on the processing

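The 109 genes called between CRC cultures and cancers became 59 with a filter at 5 FPKM, 284 with no filter, 33 in a fit of the 4 libraries alone, 58 with the replicate block, 25 without chromosome 4 genes, 13 with the block and without them, 22 without chromosome 4 and small RNA genes, 46 without genes listed at 0, and 18 without CRC culture 2 and chromosome 4. Fits without 1 library gave 0 to 272 calls, the 0 (661 at an unadjusted p under 0.05) being without EpiC culture 1; the count was 25 without EpiC culture 2, 81 and 44 without CRC culture 1 or 2, and 240 and 272 without cancer 1 or 2; the lone library left in a group is assumed to vary like the others. The 53 falls off chromosome 4 were lower in the fits without 1 CRC culture or 1 cancer. The fits without an EpiC culture, without chromosome 4, with the block and of the 4 libraries alone leave each difference unchanged. The 1 call against EpiC cultures became 5 with a filter at 5 FPKM or a pseudocount of 0.1, and 0 with no filter (382 at an unadjusted p under 0.05), with the block (238), with the block and without chromosome 4 (225), without small RNA genes (202), without chromosome 4 and small RNA genes (182) and where genes listed at 0 were dropped (185). Leaving out 1 library gave 0 to 12. The 4883 calls against allografts ranged from 3266 to 5815 with no change beyond 1.5 times. For the named and listed genes, 12189 of the alternative values kept their direction and side of the threshold, 401 lost the call, 71 gained one and 516 changed sign with no call in either fit. Many of these alternatives leave the difference of a gene unchanged by design, so the count of kept values does not measure stability. Blocked values that changed a call of a named gene stand beside it. The median of all tested genes was −0.06, 0.18 without CRC culture 2, −0.34 without CRC culture 1 and −0.10 under median ratio scaling, which turned the medians of the YAP and G1 cyclin lists from just above to just below 0. The 46 calls without genes listed at 0 leave out called genes with a 0, such as Emcn, Cybb and Fcgr2b. The causes of the changes above were not tested. Depth is unknown, so no counting error can be given.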

Other observations

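Several other gene groups had no called member off chromosome 4. Cdk6, a kinase that starts the cell cycle, had 7.82 and 7.02 FPKM in the CRC cultures and 1.02 and 3.12 FPKM in the cancers. Sfrp1, a secreted inhibitor of Wnt signals, had 33 and 16.4 FPKM in the CRC cultures and 7.48 and 3.12 FPKM in the cancers (limma adjusted p = 0.739). Hes1, a target of Notch, had 46.1 and 215 FPKM in the CRC cultures and 63.5 and 23.4 FPKM in the cancers (limma adjusted p = 0.811).

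Of genes that respond to low oxygen, Egln3, an oxygen sensor, had 10.1 and 6.87 FPKM in the CRC cultures and 48.6 and 8.21 FPKM in the cancers (limma adjusted p = 0.823), and Aldoc, an aldolase of glycolysis, had 25.1 and 30.4 FPKM in the CRC cultures and 250.1 and 18 FPKM in the cancers (limma adjusted p = 0.837). Gsta4, a glutathione transferase, had 72.5 and 315 FPKM in the CRC cultures and 5.26 and 195 FPKM in the cancers (limma adjusted p = 0.84). Among heat shock genes, Hsph1 had 121 and 52.6 FPKM in the CRC cultures and 17.9 and 55.9 FPKM in the cancers (limma adjusted p = 0.799).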
